A study of Sus scrofa with 23 samples.

Results

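The later growing period of pigs was described by comparing the transcriptomes of offspring at 188 days post natum (dpn) with those at 28 dpn. The stage given in the sample labels chose the samples, 6 at each of these ages, so that 12 of the 23 samples of the series entered the comparison. The other samples, 5 fetal at 94 dpc (days post conception) and 6 at 1 dpn, entered the fit to estimate the spread and are used below to place the levels of both ages in the course of development. All pigs of both ages were offspring of German Landrace gilts that received a gestational low protein [LP] diet. The labels used here hold no offspring of another diet, so nothing below measures an effect of protein restriction, and every difference is one between ages within low protein offspring. Each stage drew on the litters of 3 gilts, but which gilt bore which pig is not in the labels. Some samples of a stage therefore share a mother, and p-values over samples may be too small. Total RNA of each pig was hybridised to 1 Affymetrix array, and 23999 probe sets were tested, of which 10069 carried a single gene symbol, standing for 6765 genes. A gene with several probe sets was represented by its brightest one.

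The sample labels name liver as the tissue, whereas the series title names muscle. The markers of skeletal muscle were the ones at the top of the arrays: the 7 measured of 9 fixed markers, among them the muscle creatine kinase CKM and the fast myosin heavy chain MYH2, had a median percentile of 99.9 among all probe sets at both ages. Their summed signal ran from 330539 to 559376 at 28 dpn and from 458546 to 624875 at 188 dpn. The 9 hepatocyte markers summed to 2036 to 17241 at 28 dpn and to 2308 to 15687 at 188 dpn, and CYP7A1, the rate-limiting enzyme of bile acid synthesis in hepatocytes, reached at most 6.26 at 28 dpn and 32.8 at 188 dpn. The data thus go against the tissue label at both ages, and the samples are called here by their ages. The hepatocyte markers were highest in 28 dpn replicate 1 and 188 dpn replicate 6, with sums of 17241 and 15687. The sum in the other 28 dpn samples was at most 3299, and ALB, serum albumin, was at 9137 in 188 dpn replicate 6 and at most 3855 in the other 188 dpn samples. The Y-linked translation factor EIF1AY ranged from 6.57 to 815 at 28 dpn and from 6.17 to 920 at 188 dpn, so both ages mixed samples of high and of low signal.

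**Figure D1:**
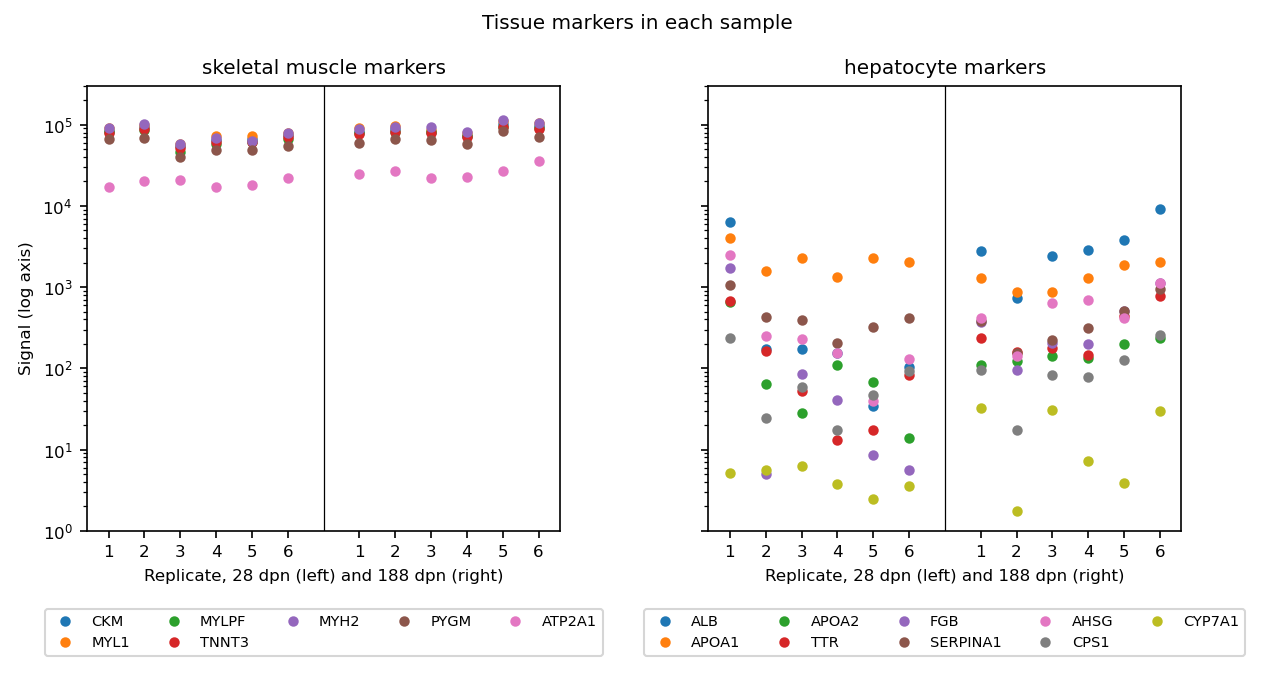
Signal of each skeletal muscle marker (left panel) and each hepatocyte marker (right panel) on a log axis, with 1 point per marker and sample, replicates 1 to 6 of 28 dpn left of the line and of 188 dpn right of it. The muscle markers stay near the top of the axis in all 12 samples, while the hepatocyte markers are highest in 28 dpn replicate 1 and 188 dpn replicate 6 (sums of 17241 and 15687) and otherwise spread over the lower part, ALB being above 700 in all 188 dpn samples and below 200 in the other 28 dpn samples.

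Skeletal muscle of a young pig still holds dividing satellite cells that add nuclei to growing fibres, matrix that is being laid down, and remnants of the fetal sarcomere programme. As the animal grows, fibres enlarge, protein synthesis and breakdown through the ubiquitin-proteasome system settle into a new balance, and the mix of fuels shifts with the change from milk to a starch-rich diet. The resident immune cells of the tissue and the interferon response they share with the fibres also change with age and exposure to microbes. The gene groups below follow these roles.

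The median signal of an array lay between 128 and 148 at 28 dpn and between 121 and 129.6 at 188 dpn. Pairs of arrays of the same age correlated at a median of 0.936 at 28 dpn and 0.931 at 188 dpn over log2 values, and pairs across the ages at 0.910. The ratio of the 5′ to the 3′ probe sets of Dap, a bacterial RNA added during labelling, separated the ages completely, at most 0.0977 at 28 dpn and at least 0.264 at 188 dpn. The corresponding ratio of the pigs' own GAPDH overlapped between the ages, with medians of 1.25 at 28 dpn and 1.19 at 188 dpn. Age and whatever the Dap ratio reflects cannot be told apart in these samples.

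More genes were lower than higher at 188 dpn. At an adjusted p under 0.05 (limma, adjusted after Benjamini and Hochberg over every probe set tested, which is what "rose", "fell" and "passed" mean throughout), 391 genes (5.78%) rose and 847 genes (12.5%) fell. A change of at least 2-fold was passed by 147 genes (2.17%) upward and by 459 genes (6.78%) downward. All 6 samples of 188 dpn lay above all 6 of 28 dpn in 424 genes (6.27%), and below them in 647 (9.56%). Over all probe sets, with and without a symbol, 1118 (4.66%) rose and 2197 (9.15%) fell, so that 33.7% of the calls were upward. Among the 13930 probe sets without a single symbol, 538 (3.86%) rose and 1199 (8.61%) fell, and these are not described further. Centring each array on its median signal, which shifted the median change of all probe sets from -0.03 to 0.07 on the log2 scale, turned this split into 1482 higher and 1698 lower, or 46.6% upward. With the Dap ratio as a covariate, 530 probe sets were higher and 1044 lower. As the ratio separated the ages completely, a call lost in that fit, here and below, need not mean a smaller change. The median log2 change over all genes was -0.06, and this value and the shares of 5.78% and 12.5% are the background for every gene group below.

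**Figure D2:**
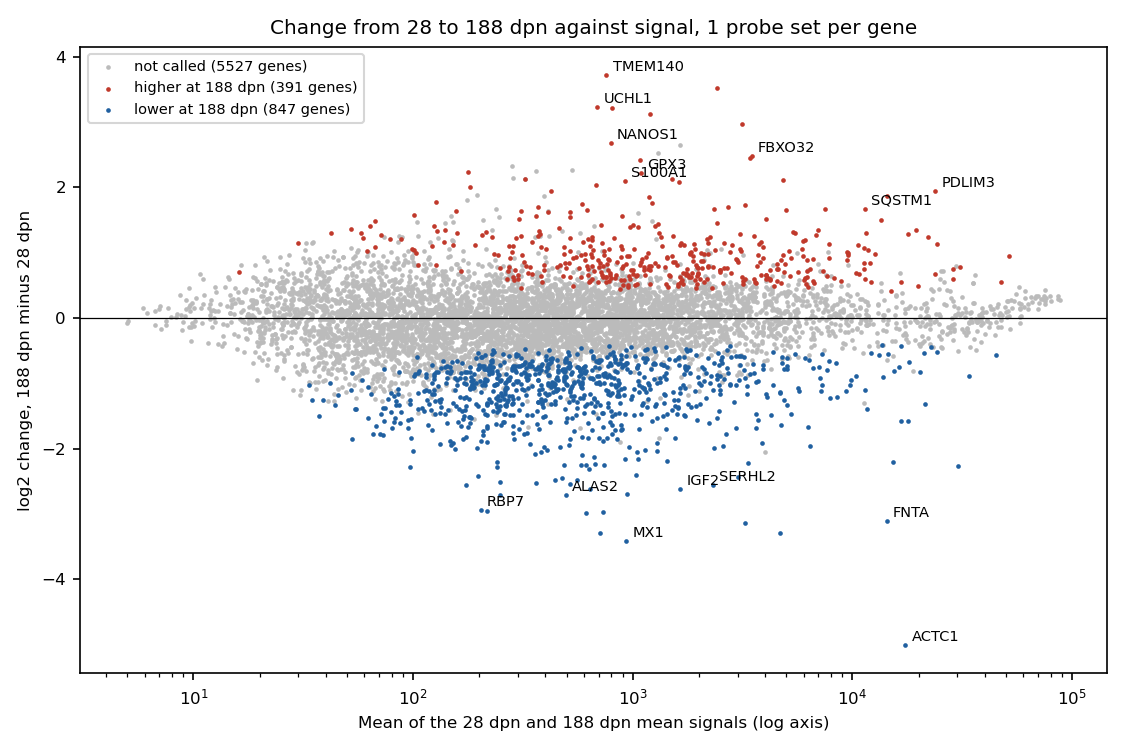
Log2 change from 28 dpn to 188 dpn of each of 6765 genes against the mean of its 28 dpn and 188 dpn signals on a log axis. Red points rose (391 genes), blue points fell (847 genes) and grey points did not pass; ACTC1 at -5.01 lies far below all other genes, and TMEM140 at 3.71 is the highest.

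The order of the ages placed most of these genes at the end of a course. Of the 391 genes that rose, 355 (90.8%) had a higher mean at 188 dpn than at any of the other 3 stages, against 26.1% of all genes. Of the 847 that fell, 729 (86.1%) had their lowest mean at 188 dpn, against 33.3% of all genes, and 515 (60.8%) had their highest mean already in the fetus at 94 dpc, against 35.5%. A peak at 28 dpn was found for 192 (22.7%) of the falling genes, against 14.6% of all genes. These shares use the same 28 dpn and 188 dpn values as the calls, and are given as a description.

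The largest change of the comparison was the fall of ACTC1, the cardiac alpha-actin that fetal skeletal muscle also builds into its thin filaments. Its signals, given here and below as the lowest, the median and the highest of the 6 samples, were 17319, 32888 and 54059 at 28 dpn and 726, 922 and 1274 at 188 dpn. Every 28 dpn sample exceeded every 188 dpn sample by more than an order of magnitude, and the fitted fall was 32.1-fold (log2 change -5.01 ± 0.23, where ± gives the SE for every log2 change here and below, adjusted p = 1.9e-12, limma). The mean was 37481 ± 4400.1 at 94 dpc and 53958 ± 9479 at 1 dpn (SD, n = 5 and 6), so that 28 dpn still held a level of the same order as before and at birth. A probe set of FNTA, the alpha subunit shared by the enzymes that attach farnesyl and geranylgeranyl groups to proteins, ran through the same course, with 18554, 24677 and 32662 at 28 dpn and 2282, 2926 and 3566 at 188 dpn (log2 change -3.11 ± 0.21). The other 2 probe sets of FNTA had log2 changes of 0.29 and 0.35 that did not pass. The first had mean signals of 1881 at 28 dpn and 2297 at 188 dpn, and the second was dim, at 37.7 and 39.6. Over the mean of all FNTA probe sets the change was -0.82 (adjusted p = 0.0039).

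Of 10 measured genes of the developmental contractile set, 4 (40%) fell, against 12.5% of all genes, and none rose, with a median log2 change of -0.74. The 4 were ACTC1, ACTA2, MYL6 and VIM, of which the last 3 are not confined to the sarcomere. The other 6 did not pass, with log2 changes from -1.54 to 0.42. The smooth muscle actin ACTA2, which also marks vessel walls, had signals of 9094, 11778 and 14917 at 28 dpn and 3505, 5409 and 6255 at 188 dpn and fell 2.31-fold (adjusted p = 0.00012). The non-muscle myosin light chain MYL6 fell by 0.86 on the log2 scale. The fall of the intermediate filament gene VIM (log2 change -0.55 ± 0.17) was lost without any 1 of 188 dpn replicates 3, 4 or 5 or 28 dpn replicates 1, 4, 5 or 6, with adjusted p from 0.051 to 0.087, and after quantile normalization (0.066), centring each array (0.11) or the Dap covariate (0.37). The cardiac troponin TNNT2, named after its value was seen, had a log2 change of -1.54 ± 0.57 that did not pass (adjusted p = 0.078).

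No gene of the adult sarcomere lists rose. None of the 8 measured fast contractile genes passed, their log2 changes running from -0.02 (MYOM2) to 0.43 (TNNI2), and MYH2 had signals of 58689, 73159 and 103288 at 28 dpn and 81075, 93783 and 113598 at 188 dpn. Of 10 slow contractile genes, 8 did not pass, with log2 changes between -0.47 and 0.22. The slow tropomyosin TPM3 fell from 1463, 2755 and 3194 at 28 dpn to 789, 879 and 1730.1 at 188 dpn, the ages overlapping only through 28 dpn replicate 2 and 188 dpn replicate 1 (log2 change -1.37 ± 0.22, adjusted p = 0.00013). The Z-disc protein ACTN2 fell too (log2 change -0.52 ± 0.17, adjusted p = 0.038), and leaving out any 1 of 188 dpn replicates 1, 2, 5 or 6 or 28 dpn replicates 2, 3, 5 or 6 ended that call (adjusted p from 0.056 to 0.093), as did centring each array (0.12), fitting only the samples of both ages (0.066) and the Dap covariate (0.27). Its other probe set fell by 0.89 (adjusted p = 0.0042). Of 8 genes of calcium handling, the cardiac and slow-fibre calsequestrin CASQ2 fell 3.99-fold from 114, 314 and 515 at 28 dpn to 20.4, 48.3 and 156 at 188 dpn (adjusted p = 0.0096), the ages overlapping, but not over the mean of its probe sets (-0.98, adjusted p = 0.1). The other CASQ2 probe set was dim, with mean signals of 15.8 at 28 dpn and 17.75 at 188 dpn. The ryanodine receptor regulator FKBP1A fell by 0.92 (adjusted p = 0.0024), but not with the Dap covariate (adjusted p = 0.073). The sarcoplasmic calcium pump of fast fibres, ATP2A1, had a log2 change of 0.45 that did not pass.

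The regulators of the muscle lineage moved in both directions. MYF6, the factor of mature fibres, had signals of 860.5, 959 and 1672 at 28 dpn and 4757, 5478 and 7316 at 188 dpn, with all 188 dpn samples far above all 28 dpn samples, a rise of 5.46-fold (log2 change 2.45 ± 0.33, adjusted p = 2.6e-05), which came to 1.70 on the log2 scale with the Dap covariate and to 1.82 over the mean of its probe sets. MYOD1, the factor of activated satellite cells and myoblasts, ran the other way, from 896, 1118 and 1529.6 at 28 dpn to 279, 405 and 586 at 188 dpn, again without overlap (log2 change -1.50 ± 0.27, adjusted p = 0.0005). ANKRD1, a stretch-responsive titin-binding protein, rose from 720.3, 2004 and 3096 at 28 dpn to 3064, 7892 and 12846 at 188 dpn, with the ages overlapping at the edge (log2 change 2.12 ± 0.39). CDKN1A, the cell cycle inhibitor p21, fell by 1.16, but not with the Dap covariate (-0.69, adjusted p = 0.28). Among 16 measured regulators, MEF2A (0.88) also rose and the myostatin antagonist FST (-0.92) also fell, both named after their values were seen, and FST was lost with the Dap covariate (adjusted p = 0.27). Myostatin itself, MSTN, had a log2 change of 0.18 ± 0.36 that did not pass.

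**Figure D3:**
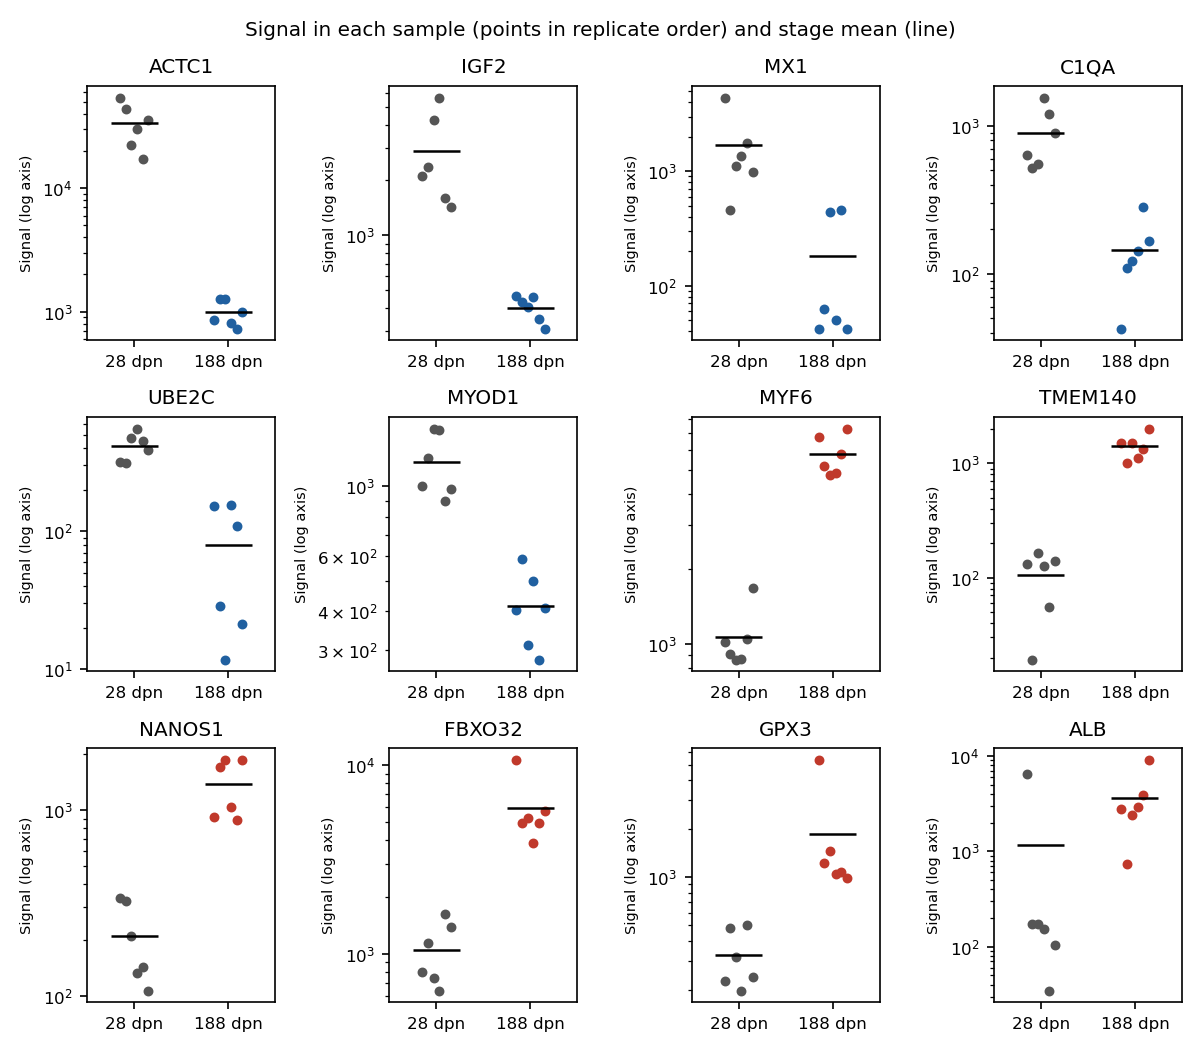
Signal of 12 genes in each of 6 samples per age on log axes, points in replicate order and a line at the mean of the age, with 28 dpn in grey and 188 dpn in blue (fell) or red (rose). In 11 panels the ages do not overlap, and in the panel of ALB 28 dpn replicate 1 lies among the 188 dpn samples.

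In the insulin and insulin-like growth factor axis the largest change was that of a ligand. IGF2, the fetal growth factor, had signals of 1427, 2218 and 5631 at 28 dpn and 309, 418 and 464 at 188 dpn, with 28 dpn replicates 3 and 4 highest and no overlap of the ages. It fell 6.16-fold (log2 change -2.62 ± 0.35, adjusted p = 2.5e-05), and its earlier means were 10243 ± 2484 at 94 dpc and 6526 ± 4960.2 at 1 dpn (SD). Of its 12 other probe sets, 6 fell too, with log2 changes from -0.98 to -3.38, and 6 did not pass, with changes from -0.73 to 0.12. IGF1 (-0.94 ± 0.35) and the receptors IGF1R (-0.50) and INSR (0.56) did not pass. The growth hormone receptor GHR (1.02 ± 0.32), the insulin-responsive glucose transporter SLC2A4 (0.96 ± 0.28) and the receptor-binding adaptor GRB10 (0.91 ± 0.21) rose. IGFBP6 (-0.89, named after its value was seen) fell with IGF2. This made 3 up (15%) and 2 down (10%) of 20, against 5.78% and 12.5% of all genes. IGFBP6 lost its call in 9 of 12 leave-one-out fits. All 3 rises were lost with the Dap covariate, and 2 of them also without 188 dpn replicate 2. GHR was lost as well without 188 dpn replicates 1 or 6 or 28 dpn replicates 2, 3 or 4 and with a pseudocount of 1, and SLC2A4 without 188 dpn replicate 3 or 28 dpn replicate 6 and over the mean of its probe sets (0.41, adjusted p = 0.23).

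Of 12 measured imprinted genes, which parental origin switches on or off, 5 (41.7%) fell and GRB10 alone (8.33%) rose. The shares of all genes were 12.5% and 5.78%. The falls include IGF2, and both IGF2 and GRB10 were already counted in the growth factor axis above. PEG10, a retrotransposon-derived growth gene, had signals of 192, 491 and 672 at 28 dpn and 47.3, 138 and 163 at 188 dpn (log2 change -1.66 ± 0.34, adjusted p = 0.0015), without overlap. Its fall did not pass over the mean of its probe sets (-0.72, adjusted p = 0.058). PLAGL1 (-0.86) and NDN (-0.85), named after their values were seen, fell as well, PLAGL1 losing its call in 10 of 12 leave-one-out fits. The noncoding RNA MEG3 fell by 1.59 (adjusted p = 0.039), which 8 of the 12 leave-one-out fits did not keep (adjusted p from 0.053 to 0.086), nor quantile normalization, centring or a trended, robust prior (0.051 to 0.058). Its other probe set fell by 2.86 (adjusted p = 3.4e-05), the mean of both changed by -2.23 (adjusted p = 6.8e-05), and with the Dap covariate the change was -2.71 (adjusted p = 0.011). The count of 5 dropped to 3 without 188 dpn replicate 5 or any 1 of 28 dpn replicates 1 to 4, and to 3 with the Dap covariate.

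Genes of cell division were lower at 188 dpn. Of 29 measured members of the cell cycle list 16 (55.2%) fell, against 12.5% of all genes, and none rose, with a median log2 change of -0.85. UBE2C, the ubiquitin-conjugating enzyme of mitotic exit, had signals of 311, 419 and 555 at 28 dpn and 11.7, 68.6 and 154 at 188 dpn, without overlap, a fall of 5.72-fold (adjusted p = 0.0012). Cyclin D2, CCND2, which drives cells out of rest, fell from 679, 719 and 812 at 28 dpn to 6.87, 164 and 228 at 188 dpn, 188 dpn replicate 5 being the lowest by far. The mitotic cyclin CCNB1 fell 3.82-fold without overlap, and the spindle protein NUSAP1 fell 4.01-fold with overlapping ages. Only 10 members were called without 188 dpn replicate 3, 28 dpn replicate 3 or 28 dpn replicate 4, and 8 with the Dap covariate. Over the mean of their probe sets UBE2C changed by -1.53 and NUSAP1 by -1.16. The highest signal of the 4 named at 28 dpn was 812. The lowest at 188 dpn was 11.7 for UBE2C, 6.87 for CCND2, 14.3 for CCNB1 and 10.4 for NUSAP1, so their falls reached into dim signals.

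Many connective tissue genes were lower at 188 dpn. Of 34 fibroblast and matrix genes 16 (47.1%) fell, against 12.5% of all genes, and none rose. The median log2 change was -0.84 and 33 changes were negative. POSTN, the matricellular protein periostin, had signals of 704, 913 and 2344 at 28 dpn and 92.6, 139.9 and 261 at 188 dpn, highest in 28 dpn replicate 1 and without overlap, a fall of 6.15-fold (adjusted p = 1.8e-05), or -1.46 on the log2 scale over the mean of its probe sets. The basement membrane collagens COL4A2 (3246, 4614 and 5767 at 28 dpn and 1180.5, 1369 and 1662 at 188 dpn; log2 change -1.69 ± 0.18) and COL15A1 (-1.49 ± 0.27) fell without overlap, as did the membrane-bound matrix protease MMP14 (-1.54 ± 0.31). Of the main fibrillar collagens, COL1A2 (-0.58) and COL3A1 (-0.10), named as markers of fibroblasts, did not pass. The COL3A1 probe set was dim, with mean signals of 72.2 at 28 dpn and 80.5 at 188 dpn, so it says little about that collagen. With the Dap covariate 10 of the list fell. The 4 measured fibroblast markers summed to 11052 to 25772 at 28 dpn and to 8058 to 13233 at 188 dpn. As the arrays measured whole tissue, fewer cells of a type and less RNA per cell cannot be told apart, here and for every cell type below.

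Vessel genes showed the same direction. Of 18 endothelial genes 7 (38.9%) fell, against 12.5% of all genes, and none rose, with a median of -0.53. The junction cadherin CDH5 had signals of 1692, 2066 and 2811 at 28 dpn and 398, 796 and 1011 at 188 dpn (log2 change -1.48 ± 0.23, adjusted p = 9.3e-05), and PECAM1, another adhesion molecule of the endothelium, had 2336, 2789 and 3614 at 28 dpn and 965, 1087 and 1423 at 188 dpn (log2 change -1.31 ± 0.16). CLDN5 (-1.18 ± 0.32), the tight junction claudin, and LYVE1 (-1.82 ± 0.32), the hyaluronan receptor of lymphatic vessels and some macrophages, fell as well, all 4 without overlap. Over the mean of their probe sets CDH5 changed by -0.89 and LYVE1 by -0.84. The sum of the 6 markers, 6071 to 8738 at 28 dpn and 2559 to 3880 at 188 dpn, separated the ages, while VWF (0.03) and the receptor KDR (-0.30) did not pass. The KDR probe set was dim, with mean signals of 82.3 at 28 dpn and 57.6 at 188 dpn. Of 8 erythroid genes, ALAS2 (408, 799 and 1371 at 28 dpn and 7.70, 145 and 209.5 at 188 dpn; log2 change -2.71 ± 0.46), the first enzyme of heme synthesis in red cell precursors, AHSP (-1.85 ± 0.31), the alpha-haemoglobin chaperone, and HBM (-1.26 ± 0.24), a globin gene, fell without overlap. HBB (0.06) did not pass, its mean signals being 260.4 ± 54.5 at 28 dpn and 272 ± 49.1 at 188 dpn (SD).

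Among the gene lists the interferon response had the largest share of falls. Of 25 measured interferon-stimulated genes 22 fell and none rose, against 12.5% of all genes, and the median log2 change was -1.88. MX1, a GTPase that blocks viral replication, had signals of 461, 1228 and 4398 at 28 dpn and 42.0, 56.9 and 460.5 at 188 dpn, the highest 188 dpn sample staying just below the lowest 28 dpn sample (fall of 10.7-fold, adjusted p = 0.0012). ISG15, the ubiquitin-like modifier, fell from 1284, 4872 and 12766 at 28 dpn to 221, 414 and 2130.4 at 188 dpn, the ages overlapping (log2 change -3.14 ± 0.79, adjusted p = 0.0086). RSAD2 (-2.99 ± 0.72), IFIT3 (-2.97 ± 0.56), the guanylate-binding protein GBP1 (-2.69 ± 0.54) and XAF1 (-2.52 ± 0.54) were among the largest falls, GBP1 changing by -1.83 over the mean of its probe sets. The samples of an age differed widely: at 28 dpn replicates 4 and 1 were highest over the list and replicate 2 lowest, and at 188 dpn replicate 5 was highest. As the median over the list of log2 values centred on each gene's mean over the 12 samples, 28 dpn replicate 2 stood at -0.0013 and 188 dpn replicate 5 at -0.08, so the ages came close through 1 sample each. At the earlier stages the mean of MX1 was 70.7 ± 53.7 at 94 dpc and 589.5 ± 893 at 1 dpn (SD), a difference from 28 dpn that was not tested. Under the Dap covariate 18 of the 25 still fell.

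**Figure D4:**
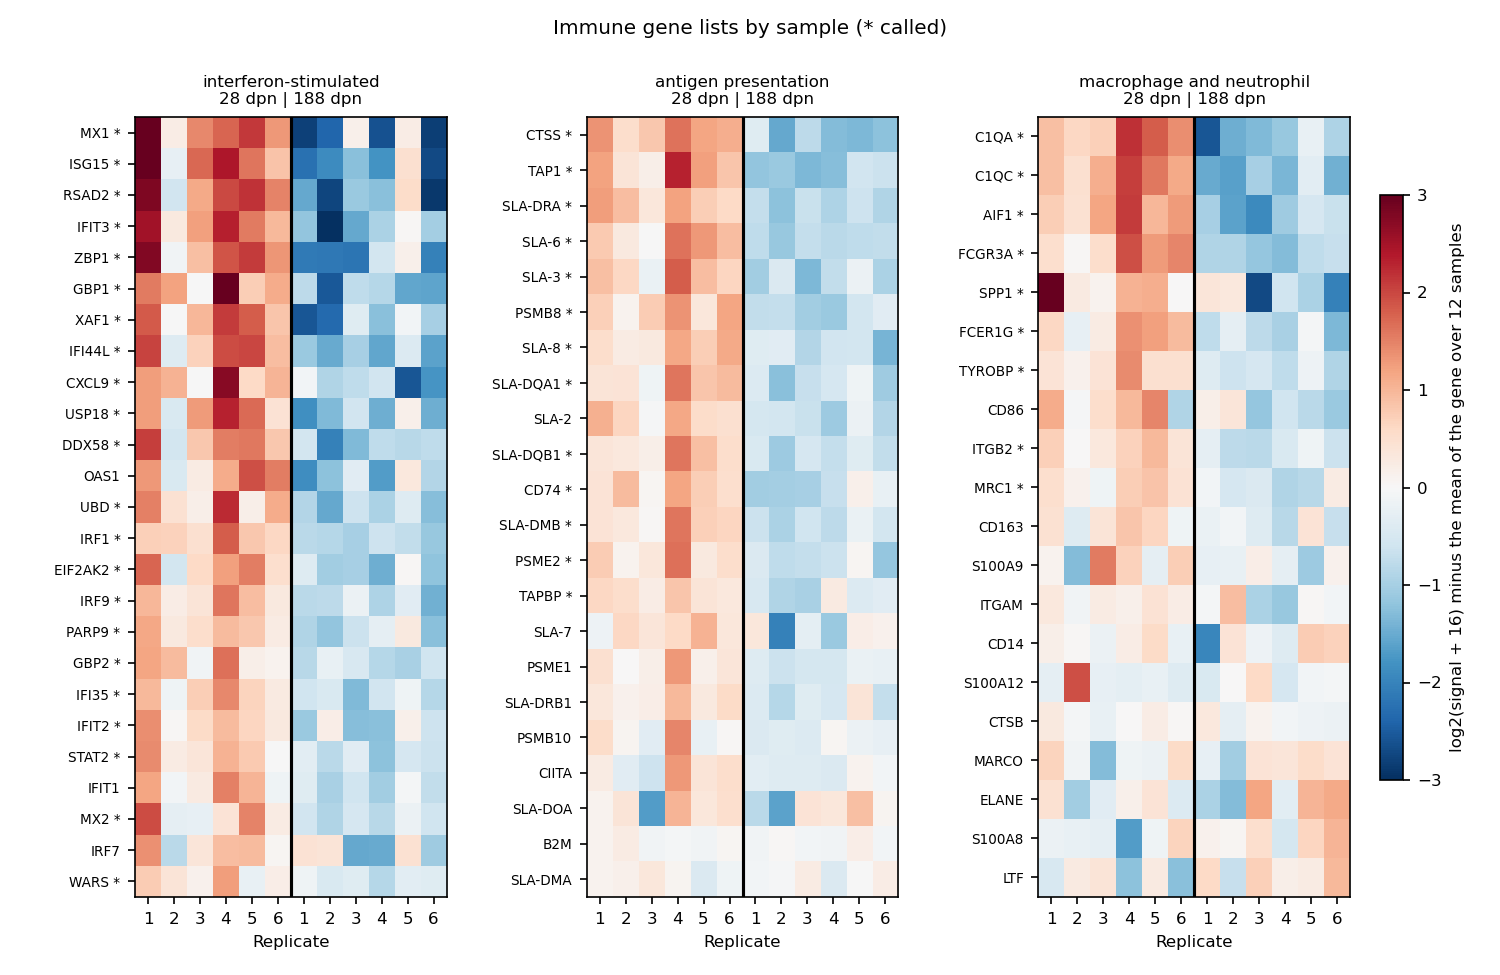
Log2(signal + 16) of each gene of 3 immune lists in each sample, minus the gene's mean over the 12 samples, as colour from blue (lower) to red (higher), with replicates 1 to 6 of 28 dpn left and of 188 dpn right of the line and a star at genes that passed. In the interferon panel 28 dpn replicates 1, 4 and 5 are reddest, 28 dpn replicate 2 and 188 dpn replicate 5 are pale, with list medians of -0.0013 and -0.08.

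Antigen presentation genes were lower too, 13 of 22 measured genes (59.1%) passing downward, against 12.5% of all genes, and none upward. The median was -1.26, and all 22 changes were negative. SLA-DRA, the class II chain that shows peptides to helper T cells, had signals of 3868, 5432 and 7322 at 28 dpn and 1291, 1732 and 1960.2 at 188 dpn without overlap (log2 change -1.69 ± 0.44, adjusted p = 0.011). CTSS, the cathepsin that trims the class II chaperone, fell from 1525, 2330.4 and 3315 at 28 dpn to 355, 430.4 and 814 at 188 dpn (adjusted p = 7.7e-07). The peptide transporter TAP1 (-2.05 ± 0.36) and the class I gene SLA-6 (-1.65 ± 0.23) fell without overlap, but TAP1 did not pass over the mean of its probe sets (-0.61, adjusted p = 0.077). The other TAP1 probe sets were dim, with mean signals of 37.6 and 31.2 at 28 dpn and 25.3 and 49.0 at 188 dpn. Over the mean of their probe sets CTSS changed by -1.44 and SLA-6 by -0.70. Probes of the SLA genes, near-identical copies of each other, may not separate them, so single SLA genes are uncertain. The class I light chain B2M had a log2 change of -0.05 ± 0.13 that did not pass.

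Of 20 macrophage and neutrophil genes 9 (45%) fell, against 12.5% of all genes, and none rose (median -0.72). C1QC, a chain of the complement starter C1q that tissue macrophages make, had signals of 2871, 4453 and 8653 at 28 dpn and 646, 763 and 1630.3 at 188 dpn, highest in 28 dpn replicate 4 and in 188 dpn replicate 5 as for the interferon genes, and without overlap (log2 change -2.43 ± 0.39, adjusted p = 0.00015). AIF1 (564, 884 and 1806 at 28 dpn and 96.5, 189.9 and 283 at 188 dpn; log2 change -2.25 ± 0.31), the Fc receptor FCGR3A (-1.91 ± 0.34) and the other C1q chain C1QA (-2.55 ± 0.36) fell without overlap. CD163 (-0.60) and CD14 (-0.21), macrophage markers, and S100A8 (0.61) and S100A9 (-0.51), neutrophil markers, did not pass. The probe sets of S100A8 and S100A9 were dim, with mean signals of 37.1 and 103 at 28 dpn and 61.6 and 57.1 at 188 dpn. The 3 measured macrophage markers summed to 917 to 2485 at 28 dpn and 427 to 903 at 188 dpn, without overlap, and the 3 neutrophil markers to 100.2 to 273 and 82.3 to 192. The complement and acute phase list, which shares the C1q chains, had 7 of 20 lower and none higher, with the C1 proteases C1R (-1.91 ± 0.25) and C1S (-1.97 ± 0.21) falling beside C1QA and C1QC.

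Of 18 T and NK cell genes 4 (22.2%) fell, against 12.5% of all genes, and none rose. They were the chemokine CCL5 (-1.98 ± 0.36), CD8A (-1.84 ± 0.52), the granule protein GNLY (-1.83 ± 0.51) and the cytokine receptor chain IL2RG (-1.10 ± 0.35). Only 1 of them was called without 28 dpn replicate 4, 2 without 28 dpn replicate 5 and 1 with the Dap covariate. IL2RG was also lost in 9 of 12 leave-one-out fits, and CD8A without 188 dpn replicate 3 (adjusted p = 0.054). With a pseudocount of 1 CD8A, GNLY and IL2RG did not pass (adjusted p from 0.06 to 0.097). The defining T cell genes CD3D (-0.13), CD3E (0.44) and LCK (0.03) did not pass, and the sum of the 4 measured T and NK markers lay between 69.2 and 507 at 28 dpn and between 151 and 302 at 188 dpn. The probe sets of CD3D, CD3E and LCK were dim, with mean signals of 84.6, 72.2 and 49.6 at 28 dpn. At 188 dpn the means were 74.6, 93.2 and 65.6, so they say little about the T cell content of either age. None of the 3 measured B cell genes passed.

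Several protein breakdown genes were higher at 188 dpn. FBXO32, the muscle-specific ubiquitin ligase atrogin-1, had signals of 636, 968 and 1617 at 28 dpn and 3885, 5094 and 10712 at 188 dpn, without overlap, a rise of 5.55-fold (log2 change 2.47 ± 0.51, adjusted p = 0.0016). SQSTM1, the autophagy receptor p62, went from 4181, 5035 and 9022 at 28 dpn to 15003, 17005 and 20255 at 188 dpn, 28 dpn replicate 5 being the highest of its age (log2 change 1.67 ± 0.29). KLF15 (1.25 ± 0.33), a glucocorticoid-responsive transcription factor, rose too, as did the calpain inhibitor CAST (0.88 ± 0.25), which did not pass with the Dap covariate (0.56, adjusted p = 0.37) or over the mean of its probe sets (0.31, adjusted p = 0.31). These were 4 of 18 measured genes (22.2%) of the atrophy and autophagy list, against 5.78% of all genes. FKBP5 (0.75) and CAPN3 (0.59) did not pass.

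Of 31 proteasome genes 11 (35.5%) rose and none fell, against 5.78% of all genes, with a median log2 change of 0.47 and 29 positive changes. In 19 of them every 188 dpn sample lay above every 28 dpn sample, against 6.27% of all genes. PSMD11, a lid subunit of the regulatory particle, had signals of 6474, 7245 and 10365 at 28 dpn and 14303, 15499.7 and 18183 at 188 dpn (log2 change 1.04 ± 0.17, adjusted p = 0.00016). PSMD2 (0.86 ± 0.16) and PSMD3 (0.77 ± 0.21), 2 other subunits of that particle, and the regulator PSMF1 (0.79 ± 0.25) rose by less than 2-fold, and PSMF1 lost its call in 8 of 12 leave-one-out fits. PSMD3 and PSMF1 did not pass with the Dap covariate (adjusted p = 0.41 and 0.11). The count was 7 without 188 dpn replicate 3 or 188 dpn replicate 4, 18 with only the samples of both ages in the fit, and 3 with the Dap covariate, under which the median was still 0.34. The interferon-inducible proteasome parts PSMB8 (-1.49) and PSME2 (-1.22), named after their values were seen and counted with antigen presentation, fell over the same interval, PSMB8 losing its call in 2 of 12 leave-one-out fits.

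Of 45 measured chaperone genes 12 (26.7%) rose, against 5.78% of all genes. Only 3 (6.67%) fell, a share below the 12.5% of all genes. CRYAB, the small heat shock protein of the Z-disc, had signals of 12494, 14794 and 17783 at 28 dpn and 19374, 38344 and 44777 at 188 dpn without overlap (log2 change 1.13 ± 0.21, adjusted p = 0.00065), and its partner HSPB8 (1.12 ± 0.20) rose likewise but not with the Dap covariate (0.81, adjusted p = 0.061). The co-chaperone DNAJB2 went from 223, 272 and 436 at 28 dpn to 804, 868 and 1179 at 188 dpn (log2 change 1.65 ± 0.26) and the endoplasmic reticulum co-chaperone DNAJB9 rose by 1.40 (adjusted p = 0.00019). The 3 that fell were DNAJA4 (-1.03 ± 0.27) and the disulfide isomerases PDIA3 (-0.71) and PDIA6 (-0.64), the last named after their values were seen. DNAJA4 did not pass over the mean of its probe sets (-0.38, adjusted p = 0.19), the other of which was dim, with mean signals of 7.57 at 28 dpn and 13.2 at 188 dpn. Of the 3, a single one was called without 188 dpn replicate 3 or 28 dpn replicate 1, and with the Dap covariate 5 of the list rose.

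Of 60 cytosolic ribosomal protein genes only RPL3 fell, from 7963, 9549.5 and 11987 at 28 dpn to 3929, 4485 and 5206 at 188 dpn (log2 change -1.12 ± 0.14, adjusted p = 1.1e-05), and the median change was 0.01 with the other 59 between -0.50 and 0.35. RPL3 fell without overlap. Of 32 translation factors 4 (12.5%) rose and 2 (6.25%) fell, against 5.78% and 12.5% of all genes. The RNA helicase EIF4A2 had signals of 19949.6, 22771 and 27183 at 28 dpn and 36188, 38614 and 43593 at 188 dpn (log2 change 0.77 ± 0.20), whereas its paralogue EIF4A1 ran from 2111, 2679 and 3497 at 28 dpn to 949.8, 1604 and 2152 at 188 dpn (log2 change -0.84 ± 0.23). EIF1AX (0.88 ± 0.23) and EIF4G1 (0.69 ± 0.15) rose, and EIF5A (0.41) rose and PABPC1 (-0.60) fell, the last 2 named after their values were seen and lost in 8 and 7 of 12 leave-one-out fits. None of the 32 was called with the Dap covariate.

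**Figure D5:**
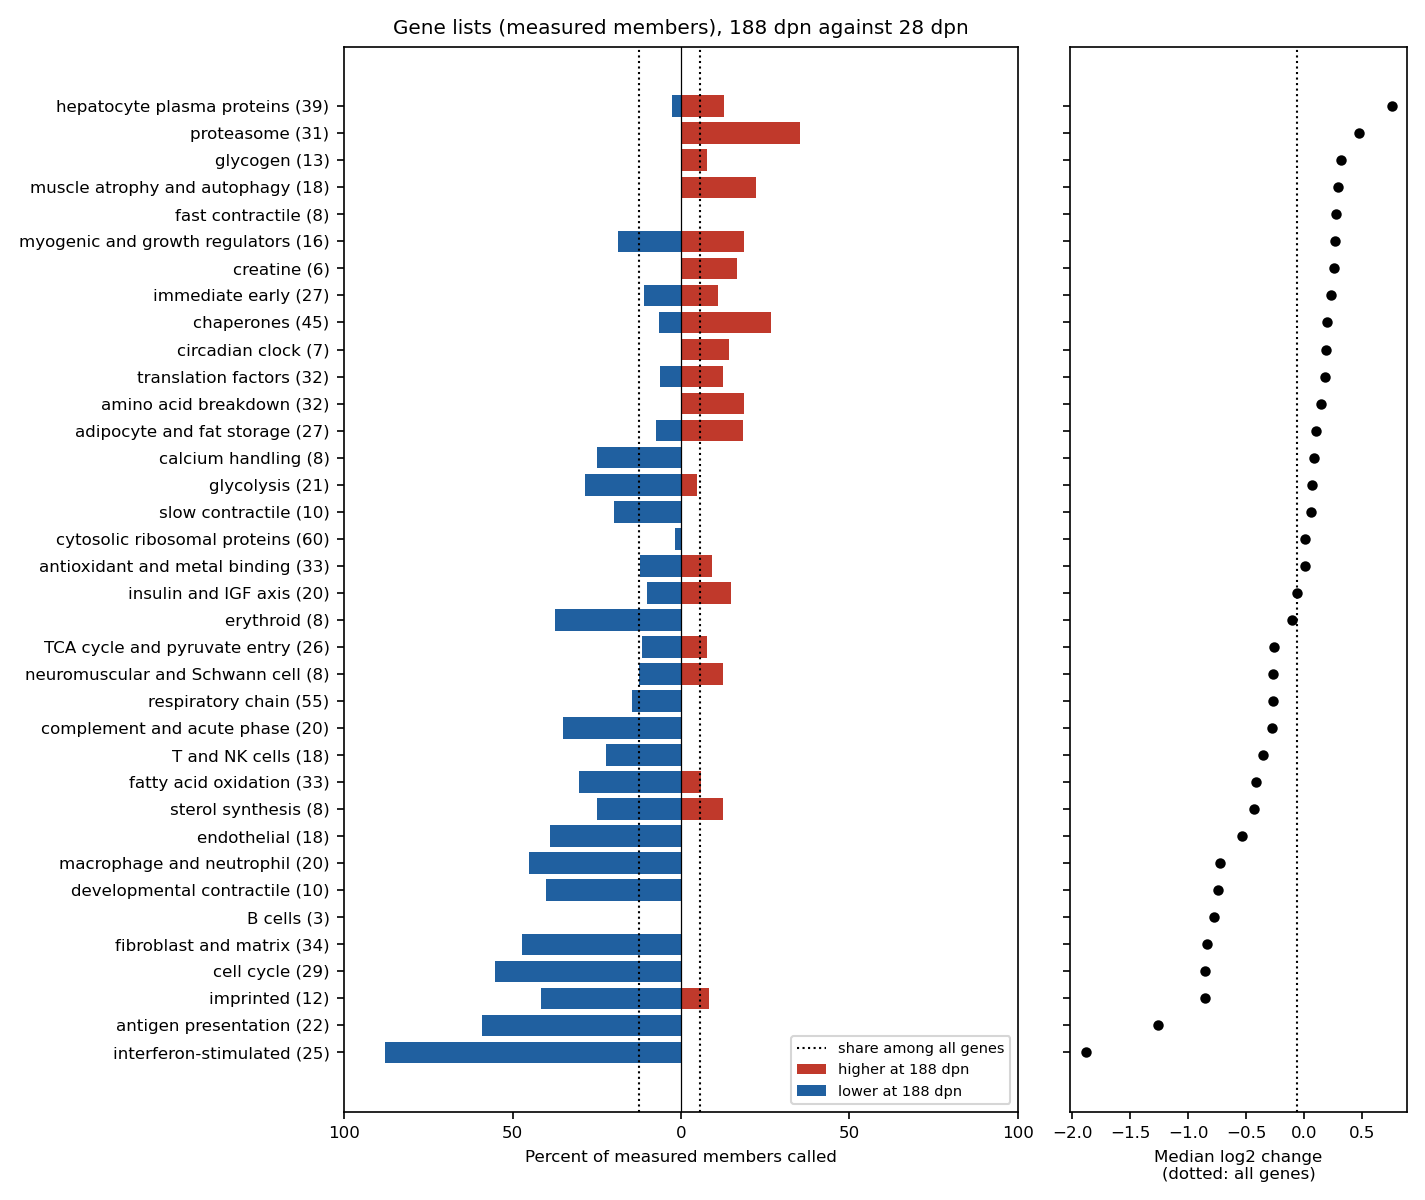
Left, percent of measured genes that rose (red, to the right) and fell (blue, to the left) in each gene list, with the number measured in brackets and dotted lines at the shares of all genes (5.78% higher, 12.5% lower); right, the median log2 change of each list, with a dotted line at that of all genes (-0.06). Among the interferon-stimulated genes 22 of 25 are lower, and 35.5% of the proteasome genes are higher.

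Energy metabolism moved unevenly. Of 21 glycolytic and redox shuttle genes 6 (28.6%) fell and 1 (4.76%) rose, against 12.5% and 5.78% of all genes. The single rise was PKM, pyruvate kinase of muscle, with 830.4, 869 and 1091 at 28 dpn and 1931, 2084 and 2457 at 188 dpn and no overlap (log2 change 1.25 ± 0.16, adjusted p = 1.3e-05). The cytosolic aminotransferase GOT1, part of the malate-aspartate shuttle, fell from 6205, 7843 and 9139 at 28 dpn to 2348, 3538 and 5533 at 188 dpn (log2 change -1.12 ± 0.28), and ENO1 (-1.07 ± 0.25), the enolase of non-muscle and embryonic cells, and HK1 (-1.06 ± 0.19), the hexokinase common outside adult muscle, fell with overlapping ages. The muscle enolase ENO3 (0.30) did not pass. Of 13 glycogen genes PHKB, a regulatory subunit of phosphorylase kinase, was the only one to pass (log2 change 0.55 ± 0.17), and it was lost without any 1 of 28 dpn replicates 1, 3 and 4 (adjusted p between 0.051 and 0.062) and with the Dap covariate. The creatine transporter SLC6A8 rose from 994, 1064 and 1505 at 28 dpn to 1862, 2714 and 2939 at 188 dpn (log2 change 1.13 ± 0.22), the only one of 6 creatine genes to pass.

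Of 33 fatty acid oxidation genes 10 (30.3%) were lower and 2 (6.06%) higher, against 12.5% and 5.78% of all genes. The share of rises was thus near that of all genes, and the median log2 change of the list was -0.41. With each sample left out in turn, 7 to 9 genes were lower. Of the falls, ETFB, ETFA and ACADL, named after their values were seen, lost their calls in 12, 11 and 10 of 12 leave-one-out fits. ECI1, an isomerase that prepares unsaturated fatty acids for oxidation, had signals of 9495, 11158 and 12924 at 28 dpn and 2934, 4869 and 5939.6 at 188 dpn without overlap (log2 change -1.23 ± 0.19, adjusted p = 0.00011). The carnitine transporter SLC22A5 (-1.33 ± 0.29) and ANGPTL4 (1057, 1201 and 1528 at 28 dpn and 192, 461 and 874 at 188 dpn; log2 change -1.46 ± 0.33), a secreted inhibitor of lipoprotein lipase, fell too. PDK4, the kinase that shuts pyruvate out of oxidation, went against these with 2597, 6115 and 12195 at 28 dpn and 5929, 17575 and 26406 at 188 dpn (log2 change 1.29 ± 0.41, adjusted p = 0.036), but its call was lost in 7 of 12 leave-one-out fits (adjusted p from 0.059 to 0.1), with the Dap covariate (adjusted p = 0.23), after quantile normalization (0.056) and with only the samples of both ages (0.063). The other probe set of PDK4 rose by 1.56 ± 0.40 (adjusted p = 0.0095). UCP3 (1.12 ± 0.36), the mitochondrial carrier named after its value was seen, was the other rising gene, and lost its call in 10 of 12 leave-one-out fits.

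Of 26 genes of pyruvate entry and the citric acid cycle 2 (7.69%) rose and 3 (11.5%) fell, shares near the 5.78% and 12.5% of all genes. PDK3, another pyruvate dehydrogenase kinase, had mean signals of 153 ± 52.5 at 28 dpn and 457 ± 99.8 at 188 dpn (SD), a rise with a log2 change of 1.52 ± 0.27 (adjusted p = 0.00049), and pyruvate carboxylase PC rose by 0.90 with overlapping ages, but not with the Dap covariate (adjusted p = 0.093). ACO1 (-0.69 ± 0.19, lost with the Dap covariate at adjusted p = 0.53 and at 0.054 after centring or over the mean of its probe sets), IDH3B (-0.69 ± 0.23) and MDH2 (-0.68, named after its value was seen) fell. IDH3B kept its call in 2 of 12 leave-one-out fits and lost it with the Dap covariate and after quantile normalization, and the count of falls was 1 after centring each array and 8 with only the samples of both ages in the fit. Of 55 respiratory chain genes 8 (14.5%) fell and none rose, a share near the 12.5% of all genes, with a median of -0.27 and 48 changes negative. COX6A1 (3666, 3955 and 4369 at 28 dpn and 1716, 1860.5 and 3559 at 188 dpn; log2 change -0.95 ± 0.20), the non-muscle isoform of a cytochrome oxidase subunit, fell without overlap, as did COX7A2 (-0.76 ± 0.16), NDUFA8 (-0.75 ± 0.23) and NDUFB5 (-0.69 ± 0.20). The count was 3 without 188 dpn replicate 2, 4 without 188 dpn replicate 6, 5 without 28 dpn replicate 1 or 6, and 3 after centring each array. NDUFA8 was lost in those same 4 leave-one-out fits (adjusted p from 0.054 to 0.065) and after centring (0.058), and NDUFB5 without 188 dpn replicate 2 (adjusted p = 0.054), and COX7A2 with the Dap covariate (adjusted p = 0.065).

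Of 27 genes of fat synthesis and storage 5 (18.5%) rose and 2 (7.41%) fell, against 5.78% and 12.5% of all genes. ME1, the cytosolic malic enzyme that supplies NADPH for fatty acid synthesis, had signals of 320.4, 540.4 and 1065 at 28 dpn and 2078, 2446 and 2587 at 188 dpn, without overlap, a rise of 4.39-fold (log2 change 2.13 ± 0.30, adjusted p = 3.7e-05). The fatty acid binding protein FABP4 of adipocytes and endothelium fell from 4776, 5607 and 10422 at 28 dpn to 2298, 2730.0 and 3534 at 188 dpn (log2 change -1.14 ± 0.26, adjusted p = 0.0047). ELOVL6 (-1.27 ± 0.33), a fatty acid elongase, fell with overlapping ages and did not pass with the Dap covariate (adjusted p = 0.2) or over the mean of its probe sets (adjusted p = 0.071). PCK1, the enzyme of glyceroneogenesis and gluconeogenesis, rose by 1.85 (adjusted p = 0.039), a change that came to 1.12 (adjusted p = 0.054) without 188 dpn replicate 1 and lost its call in 8 of 12 leave-one-out fits in all, and with only the samples of both ages, with a trended, robust prior and with the Dap covariate (adjusted p = 0.12, 0.054 and 0.2). The other rises, AGPAT2 (1.02), CEBPB (0.99) and DGAT1 (0.92), were named after their values were seen, and 1 of the 5 rises was called with the Dap covariate. Of the adipocyte markers, ADIPOQ (-0.02) and LEP (-0.62) did not pass, and the sum of the 3 measured, 5048 to 11008 at 28 dpn and 2589 to 3823 at 188 dpn, was made up mostly of FABP4. In sterol synthesis FDFT1, squalene synthase, rose from 2519, 2960.1 and 3985 at 28 dpn to 6568, 7967 and 8591 at 188 dpn (log2 change 1.31 ± 0.22), while INSIG1 (-1.18 ± 0.31) and SREBF2 (-0.87 ± 0.23), the sensor and the transcription factor of the pathway, fell. Over the mean of their probe sets neither INSIG1 (adjusted p = 0.081) nor SREBF2 (adjusted p = 0.88) passed. The other probe set of INSIG1 was dim, with mean signals of 53.7 at 28 dpn and 36.6 at 188 dpn. Those of SREBF2 had means from 17.8 to 68.0 at 28 dpn and from 12.7 to 120 at 188 dpn. With the Dap covariate INSIG1 did not pass either, its change being -1.28 (adjusted p = 0.084).

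Of 32 genes of amino acid metabolism 6 (18.75%) rose and none fell, against 5.78% and 12.5% of all genes. The aldehyde dehydrogenase ALDH2 had signals of 8455, 10332 and 15130.0 at 28 dpn and 24279, 24754 and 35114 at 188 dpn (log2 change 1.34 ± 0.27, adjusted p = 0.0014), and GLUL, glutamine synthetase, had 7126, 8888 and 22649.5 at 28 dpn and 22110.4, 24563 and 27693 at 188 dpn, the highest 28 dpn sample reaching into the 188 dpn range (log2 change 1.28 ± 0.28). The arginine-forming enzymes ASL (1.33 ± 0.24; adjusted p = 0.056 with the Dap covariate) and ASS1 (1.22 ± 0.40) rose, ASS1 with overlap, and ASS1 came to 0.73 (adjusted p = 0.056) without 188 dpn replicate 1 and was lost in 6 of 12 leave-one-out fits, with a pseudocount of 1 (0.051), with only the samples of both ages (0.12) and with the Dap covariate (0.18). The serine synthesis enzymes PSPH (-1.83 ± 0.63), PHGDH (-1.67 ± 0.89) and PSAT1 (-1.27 ± 0.57), named after their values were seen, had large downward changes that did not pass. With the Dap covariate 2 of the list rose.

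Of 33 antioxidant and metal-binding genes 3 (9.09%) rose and 4 (12.1%) fell, shares near the 5.78% and 12.5% of all genes. GPX3, the secreted glutathione peroxidase, had signals of 196, 279 and 502 at 28 dpn and 985, 1147 and 5368 at 188 dpn, without overlap and with 188 dpn replicate 1 far above the others (log2 change 2.21 ± 0.37, adjusted p = 0.00026), and its change was 1.63 with the Dap covariate (adjusted p = 0.05). GPX2, the epithelial glutathione peroxidase, ran from 274, 777 and 4391 at 28 dpn to 121, 218 and 307 at 188 dpn (log2 change -2.16 ± 0.56), with overlap. The metallothionein MT1A (2.12 ± 0.67) rose, and GSR (-1.07 ± 0.26), which regenerates glutathione, fell. MT1A was lost without 188 dpn replicates 1 or 6 or 28 dpn replicates 3, 4, 5 or 6 (adjusted p between 0.055 and 0.096), which brought the rises down to 1 with GCLM (1.05, named after its value was seen) also lost. MT1A did not pass either with only the samples of both ages (0.059) or the Dap covariate (0.15), and GSR was lost with the Dap covariate (adjusted p = 0.093) and over the mean of its probe sets (-0.16, adjusted p = 0.68). The other GSR probe sets were dim, with mean signals of 54.5 and 20.3 at 28 dpn and 77.7 and 34.9 at 188 dpn. NQO1 (-1.03) and TXN (-0.65), also named after the fact, completed the falls, NQO1 losing its call in 3 of 12 leave-one-out fits.

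Of 27 immediate early genes, which switch on within minutes of a stimulus, 3 (11.1%) rose and 3 (11.1%) fell. The shares of all genes were 5.78% and 12.5%. FOS had signals of 266, 332 and 1355 at 28 dpn and 1175, 3024 and 20499 at 188 dpn, with 188 dpn replicate 6 highest and 28 dpn replicate 3 reaching into the 188 dpn range (log2 change 2.97 ± 0.51, adjusted p = 0.00034). JUN, its partner in the AP-1 factor, ran from 1656, 1974 and 4304 at 28 dpn to 4210.1, 6682 and 14231 at 188 dpn (log2 change 1.66 ± 0.36). IER3 (-1.31 ± 0.23) fell without overlap and RHOB (-1.10 ± 0.19), a small GTPase, fell too, but not over the mean of its probe sets (-0.20, adjusted p = 0.47). The other RHOB probe sets were dim, with mean signals from 27.7 to 85.8 at 28 dpn and from 30.6 to 92.9 at 188 dpn. IER5 (0.98) rose and MYC (-1.05) fell, both named after their values were seen and lost in 1 and 2 of 12 leave-one-out fits. Without 188 dpn replicate 1 or 188 dpn replicate 2 the rises were 5. Among 7 clock genes CRY2, a repressor of the clock, rose from 455, 714 and 906 at 28 dpn to 1471, 1822 and 2255 at 188 dpn without overlap (log2 change 1.40 ± 0.23, adjusted p = 0.00017), and the other 6 did not pass.

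Plasma protein genes of the hepatocyte were higher at 188 dpn in the median and unequal between samples. Of 39 measured 5 (12.8%) rose and 1 (2.56%) fell, against 5.78% and 12.5% of all genes, with a median log2 change of 0.76. ALB, serum albumin, had signals of 34.5, 164 and 6399.8 at 28 dpn and 744, 2848 and 9137 at 188 dpn, the 6399.8 of 28 dpn replicate 1 lying above all 188 dpn samples but replicate 6, at 9137 (log2 change 3.52 ± 0.94, adjusted p = 0.013). Without 28 dpn replicate 1 its change was 4.46 (adjusted p = 0.00043), 14 of the 39 rose and the median was 1.02. APOC3 (3.12 ± 0.93), an apolipoprotein, and VTN (1.63 ± 0.54), vitronectin, rose with overlapping ages, as did PCK1 and SERPIND1 (1.30, named after its value was seen). Of the 9 fixed hepatocyte markers ALB alone passed. APOA1 (-0.70), SERPINA1 (-0.21), CPS1 (0.49), CYP7A1 (0.59), APOA2 (0.82), AHSG (1.01), TTR (1.55) and FGB (2.24) did not pass. Without 28 dpn replicate 1, TTR (2.12, adjusted p = 0.0086) and FGB (3.17, adjusted p = 0.023) passed too. APOC3 was lost without 188 dpn replicate 6, 28 dpn replicate 4 or 28 dpn replicate 5 (adjusted p between 0.062 and 0.073) and VTN in 10 of 12 leave-one-out fits. With only the samples of both ages in the fit (adjusted p = 0.054 and 0.093) or with the Dap covariate (0.056 and 0.18) neither APOC3 nor VTN passed. The count of rises was 2 without 188 dpn replicate 6, where the median was 0.53 and the change of ALB 3.18 (adjusted p = 0.035), and 2 or 3 without any 1 of the other 28 dpn replicates or without 188 dpn replicates 1 or 3. ORM1, an acute phase protein, fell by 0.56, lost this call in 7 of 12 leave-one-out fits (adjusted p from 0.05 to 0.072), after quantile normalization, after centring and with the Dap covariate (0.063, 0.08 and 0.37), and over the mean of its probe sets had a change of 0.09 (adjusted p = 0.92). Hepatocyte RNA and expression of these genes within the sampled tissue cannot be told apart in whole-tissue signals.

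In the nerve and junction list of 8 genes UCHL1, a ubiquitin hydrolase abundant in neurons, rose from 18.1, 123 and 457 at 28 dpn to 506, 1368 and 1488 at 188 dpn, 188 dpn replicate 1 being the lowest of its age yet above all 28 dpn samples (log2 change 3.22 ± 0.59, adjusted p = 0.00061). MBP, myelin basic protein, fell from 652, 1007 and 1653 at 28 dpn to 222, 282 and 384 at 188 dpn (log2 change -1.83 ± 0.31). Its 3 other probe sets, with changes of -0.32, 0.07 and -0.31, did not pass, and over the mean of all its probe sets the change was -0.60 (adjusted p = 0.028). The 2 measured Schwann cell markers, SOX10 (-0.75) and S100B (-0.22), did not pass and summed to 528 to 864 at 28 dpn and to 468 to 690.0 at 188 dpn. The SOX10 probe set was dim, with mean signals of 72.3 at 28 dpn and 34.7 at 188 dpn.

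Genes of the largest changes outside these lists completed the picture. Upward, TMEM140, a transmembrane protein, had signals of 19.1, 128 and 165 at 28 dpn and 1007, 1411 and 2011 at 188 dpn and rose 13.1-fold (log2 change 3.71 ± 0.54, adjusted p = 5.9e-05), and the RNA-binding NANOS1 had 106, 177 and 335 at 28 dpn and 887, 1374 and 1870.4 at 188 dpn (log2 change 2.68 ± 0.31). NANOS1 changed by 1.48 over the mean of its probe sets. The other rises included S100A1 (2.09 ± 0.35), a calcium sensor of striated muscle, MRLN (2.03 ± 0.42), the micropeptide myoregulin that restrains the calcium pump, PDLIM3 (7232, 9740.0 and 13680.1 at 28 dpn and 28708, 36176 and 49448 at 188 dpn; log2 change 1.94 ± 0.28), a Z-disc protein, and XIRP1 (1.73 ± 0.42), an actin-binding protein of cell junctions. The lists of fast contractile, slow contractile and calcium handling genes, given above, held no rise. With the Dap covariate MRLN did not pass (adjusted p = 0.052), and the changes of TMEM140 and PDLIM3 were 2.54 and 1.25. FNTB (2.08 ± 0.31), the beta subunit of farnesyltransferase, rose, as did ARL2BP (1.70 ± 0.18) and the unnamed locus LOC100524737 (1.76 ± 0.24). Downward, RBP7 (87.6, 384 and 585 at 28 dpn and 4.32, 31.1 and 72.4 at 188 dpn; log2 change -2.94 ± 0.59), a retinol-binding protein, EVA1B (-2.72 ± 0.36), the hydrolase-like SERHL2 (2116, 4498 and 4789 at 28 dpn and 509, 634 and 849.8 at 188 dpn; log2 change -2.56 ± 0.35) and SP140 (-2.56 ± 0.45), a nuclear body protein of leukocytes, completed the falls. The ages did not overlap in any of these genes, which was part of the rule that chose them.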

How the data were processed

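The deposited values were 1 linear signal intensity per probe set and array, scaled so that the trimmed mean (2% at either end) was near 500 on every array. The submitters' processing notes name GCOS 1.1.1; neither the summarisation nor the background correction is given in the sources used here. Per the labels' protocols, biotinylated cRNA was made from 0.5 ug of DNase-treated total RNA. Of 24123 probe sets, 124 controls were left out. Gene symbols came from the platform's annotation table: 10069 tested probe sets had 1 symbol, and 198 in the file with several were not named. No array pair held identical values.

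Signals were taken as log2(signal + 16), so folds of dim genes are understated. One mean per stage was fitted over all 23 arrays with lmFit and eBayes (limma 3.58.1, R 4.3.3), contrasting 188 dpn with 28 dpn. p-values were adjusted by Benjamini-Hochberg over 23999 probe sets and called under 0.05. The fit was tested on simulated data. At an unadjusted p under 0.05, 6174 probe sets passed. Changes are on the log2(signal + 16) scale with the standard error of the fit.

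Named genes were the 15 largest rises and 15 largest falls that passed with no overlap of the ages and whose higher mean exceeded the median over all probe sets and samples, plus, from each list of at least 3 measured genes, the 4 called members of largest change and the largest in the opposite direction. A few genes outside this rule are marked in the text, or are fixed markers or unpassed list members named after their values were seen. The genes, lists and tests were chosen with earlier results of these data known. Lists are described by counts and medians, with no set test. Alternatives were the pseudocount (1, 64), a filter on dim probe sets, quantile or median centring, the mean of a gene's probe sets, only both ages in the fit, array weights, a trended robust prior, the Dap covariate and each sample left out. One array per pig gives no technical replicate, and the number of arrays limits precision: the median standard error was 0.31.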

Additional observations from a re-analysis of the deposited data

Results flagged for a closer look

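Of 280 sets of 6 samples of an age that were examined (named genes and summed markers), 31 (11.1%) held 1 sample far from the other 5 on the log2 scale, where chance gives about 1 in 20. None of the 31 was 28 dpn replicate 4, 188 dpn replicate 3 or 188 dpn replicate 6, and the causes were not tested. In 28 dpn replicate 1 the hepatocyte marker sum was 17241 (others at most 3299), ALB 6399.8, VTN 1101 and POSTN 2344, each the highest of its age. In 188 dpn replicate 1 GPX3 was 5368, PCK1 10058, COX6A1 3559, GSR 405 and TPM3 1730.1, each the highest, and UCHL1 506 and PSMF1 751, each the lowest. In 188 dpn replicate 2 ALAS2 (7.70), CCL5 (43.1), CDH5 (398), IFIT3 (5.06), PEG10 (47.3) and SLA-6 (288) were the lowest. In 188 dpn replicate 4 the lowest were ASL (294), CCNB1 (14.3) and LYVE1 (3.99), and in 188 dpn replicate 5 CAST (480.5), CCND2 (6.87) and ME1 (2078). At 28 dpn, EVA1B (208) and TPM3 (1463) were lowest in replicate 2. COL15A1 was highest (7783) and ASS1 lowest (192) in replicate 3. PKM (1091) and SQSTM1 (9022) were highest in replicate 5, and MYF6 was highest (1672) and ORM1 lowest (514) in replicate 6.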

How the results depend on the processing

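The counts of probe sets and genes that rose or fell stayed within 1.5 times their main values under every alternative run except the Dap ratio as a covariate, which left 530 probe sets higher and 1044 lower, and 185 genes higher and 458 lower. Of the main calls it kept 413 probe sets higher and 907 lower. Leaving out each sample in turn gave 913 to 1018 probe sets higher and 1876 to 2159 lower. For genes the ranges were 312 to 358 higher and 727 to 843 lower. Of 129 named genes, 109 passed in every leave-one-out fit, and 35 lost their call with the Dap covariate. That covariate moved the fitted fold of 21 others by a factor of over 1.5. The log2 change became smaller for GPX3, MYF6, PDLIM3 and TMEM140 and larger for the rest, among them MX1 (-4.01), ISG15 (-4.32), CASQ2 (-3.37) and CLDN5 (-2.17). Of the 35 that lost their call with the Dap covariate, some had a larger change under it, such as INSIG1 (-1.28 against -1.18) and IDH3B (-0.98 against -0.69). Others had a smaller one, such as EIF4A2 (0.31 against 0.77) and ACO1 (-0.31 against -0.69). Calls were also lost for 12 over the mean of a gene's probe sets (which moved 14 others as far), 8 after centring, 7 with only the samples of both ages in the fit, 6 with a pseudocount of 1, 5 after quantile normalization and 3 with a trended, robust prior. ORM1 reversed, to 0.095, over the mean of its probe sets. Of 84 other probe sets of named genes, 24 passed in the same direction, 0 in the opposite one and 60 did not pass. The causes of these differences were not tested. Each array was of a different pig, so the ages held no pairs of samples. The labels give no replicate numbers, and the numbers used here follow sample order only. Dam, litter and sex are not in the labels. Changes of probe sets with signals near the pseudocount of 16 are compressed.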
